A study of Homo sapiens with 24 samples.

Results

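Eukaryotic translation initiation factors (eIFs), the proteins that place the ribosome on the start codon of an mRNA, were followed in 3 B-cell lymphoma lines exposed to artesunate, an antimalarial drug derived from artemisinin. Members were taken from the array's probe annotation by gene name: symbols beginning with EIF and a factor number from 1 to 6 were kept, while the eIF2 kinases, EIF2S1 and pseudogenes were left out. Of 73 probes with such a symbol, 63 probes of 45 genes had a detection p under 0.05 on 2 or more of the 24 arrays, out of 25017 probes that passed the same filter and were tested. The other 10 probes failed it, among them both probes of EIF4E3, a member of the cap-binding family, and the only probe of EIF3J-DT, a transcript that diverges from the EIF3J promoter and encodes no factor. Of the 63 members, 51 were detected on all 24 arrays. EIF1AY, which is on the Y chromosome, is counted with its 2 probes but its levels are not given.

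RNA came from BL-41, a Burkitt lymphoma line, and from Oci-Ly-2 and SU-DHL-4, diffuse large B-cell lymphoma lines of the germinal centre type. Each line was sampled as a control at 0 h and 12 h and after 4 h and 12 h with 5 µM artesunate. The sources call the control untreated in some places and given the drug's vehicle in others, and untreated is used here for it in either sense. This makes 12 groups of 2 BeadChip arrays, which the study calls technical replicates. The p-values therefore measure the spread between such arrays and not between independent cultures, and no control at 4 h was analysed here.

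Initiation proceeds by steps to which the factor numbers belong. eIF1 and eIF1A hold the small ribosomal subunit in a scanning state, eIF2 brings the initiator tRNA and is recharged with GTP by eIF2B, eIF3 is the large scaffold, and eIF4E, eIF4G and eIF4A bind the cap and unwind the leader of the mRNA. eIF5 triggers GTP hydrolysis on eIF2, eIF5B joins the large subunit, and eIF6 keeps the ribosomal subunits apart. In stressed cells, phosphorylation of eIF2 alpha lowers initiation on most mRNAs, and the eIF4E-binding proteins (4E-BPs) keep eIF4E from joining eIF4G when growth signals fall.

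The 5 genes with probes that changed after 12 h of artesunate, described next, are introduced by the 100 bases before their annotated start, since they did not all move the same way. The bases are from RefSeq on GRCh38.p14 and are printed 5′ to 3′ on the strand of the gene, with matches to the E-box CACGTG, which MYC and related factors bind, and to TGATGNAA, an element bound by C/EBP and ATF factors, in capitals. EIF1, which rose, lies on the plus strand at chr17:41688785-41688884.
EIF1: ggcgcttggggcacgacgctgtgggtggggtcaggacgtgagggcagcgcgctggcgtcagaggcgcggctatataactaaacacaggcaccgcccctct
EIF1AX, which fell, lies on the minus strand at chrX:20141839-20141938.
EIF1AX: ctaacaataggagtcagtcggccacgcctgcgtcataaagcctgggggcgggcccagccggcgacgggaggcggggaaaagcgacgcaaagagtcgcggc
EIF4E, for which 1 of 2 probes fell, lies on the minus strand at chr4:98929134-98929233.
EIF4E: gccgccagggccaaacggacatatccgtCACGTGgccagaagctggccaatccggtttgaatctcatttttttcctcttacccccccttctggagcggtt
EIF4E2, which fell, lies on the plus strand at chr2:232550589-232550688.
EIF4E2: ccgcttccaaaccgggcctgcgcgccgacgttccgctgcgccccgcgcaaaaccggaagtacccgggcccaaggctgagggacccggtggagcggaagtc
EIF4A1, for which 1 of 2 probes fell, lies on the plus strand at chr17:7572725-7572824.
EIF4A1: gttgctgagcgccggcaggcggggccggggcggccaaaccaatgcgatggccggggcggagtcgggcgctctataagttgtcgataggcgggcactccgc

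Only the EIF4E stretch holds a match, 72 bases before the start, and a second CACGTG lies 225 bases before it. A window from 250 bases before to 50 after the start was searched on both strands in the 38 member genes with an entry in the promoter table. CACGTG was found in 10 of the 38 (26.3%), against 9.90% of 10175 genes with a tested probe and 7.26% of all 35116 windows. The 10 genes are EIF1B, EIF2B3, EIF3F, EIF3K, EIF4A3, EIF4B, EIF4E, EIF4G1, EIF4H and EIF5A2, and EIF4E alone among them had a probe that changed at 12 h. TGATGNAA was found in 0 of the 38, against 1.97% of the genes with a tested probe and 3.62% of all windows. At background shares this low, a lack of matches among 38 genes carries little information. The letters do not overlap each other, and a match describes the sequence and does not show that a factor binds there.

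To ask which factors responded to artesunate, the arrays of 12 h artesunate were set against those of the 12 h control. Throughout, a probe is said to have changed, risen or fallen when its fold change exceeded 0.5 on the log2 scale in either direction and its adjusted p in limma (Benjamini-Hochberg over all 25017 probes) was under 0.01. EIF1 rose in each of the 3 lines. With the lines pooled, as the mean of the changes in the 3 lines, 6 member probes of 5 genes changed: EIF1 rose, and both well-detected probes of EIF1AX, the EIF4E2 probe, 1 EIF4E probe and 1 EIF4A1 probe fell, of which the EIF4E call rests partly on signals not above background. The remaining 57 member probes, including all those for eIF2, eIF2B, eIF3, eIF5 and eIF6, did not pass.

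By line, 1 member probe rose in BL-41 (1.59% of members), where 0.939% of all tested probes rose, 0.572% fell and 1.51% did either. In SU-DHL-4 it was again 1, against 0.588% of all probes that rose, 0.344% that fell and 0.931% in either direction. In Oci-Ly-2, 1 rose and 2 fell (4.76% together), against 1.59%, 1.44% and 3.03%. With the lines pooled, 1 member probe rose (1.59%) and 5 fell (7.94%), against 2.58% and 2.31% of all probes and 4.89% in either direction. The pooled share of members that fell was thus above the background share with these values, but with the deposited processed values 1 member rose and 1 fell (1.59% each), against 0.847% and 0.823% of all probes. The median change of the members was -0.013 on the log2 scale against -0.001 for all tested probes.

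**Figure D1:**
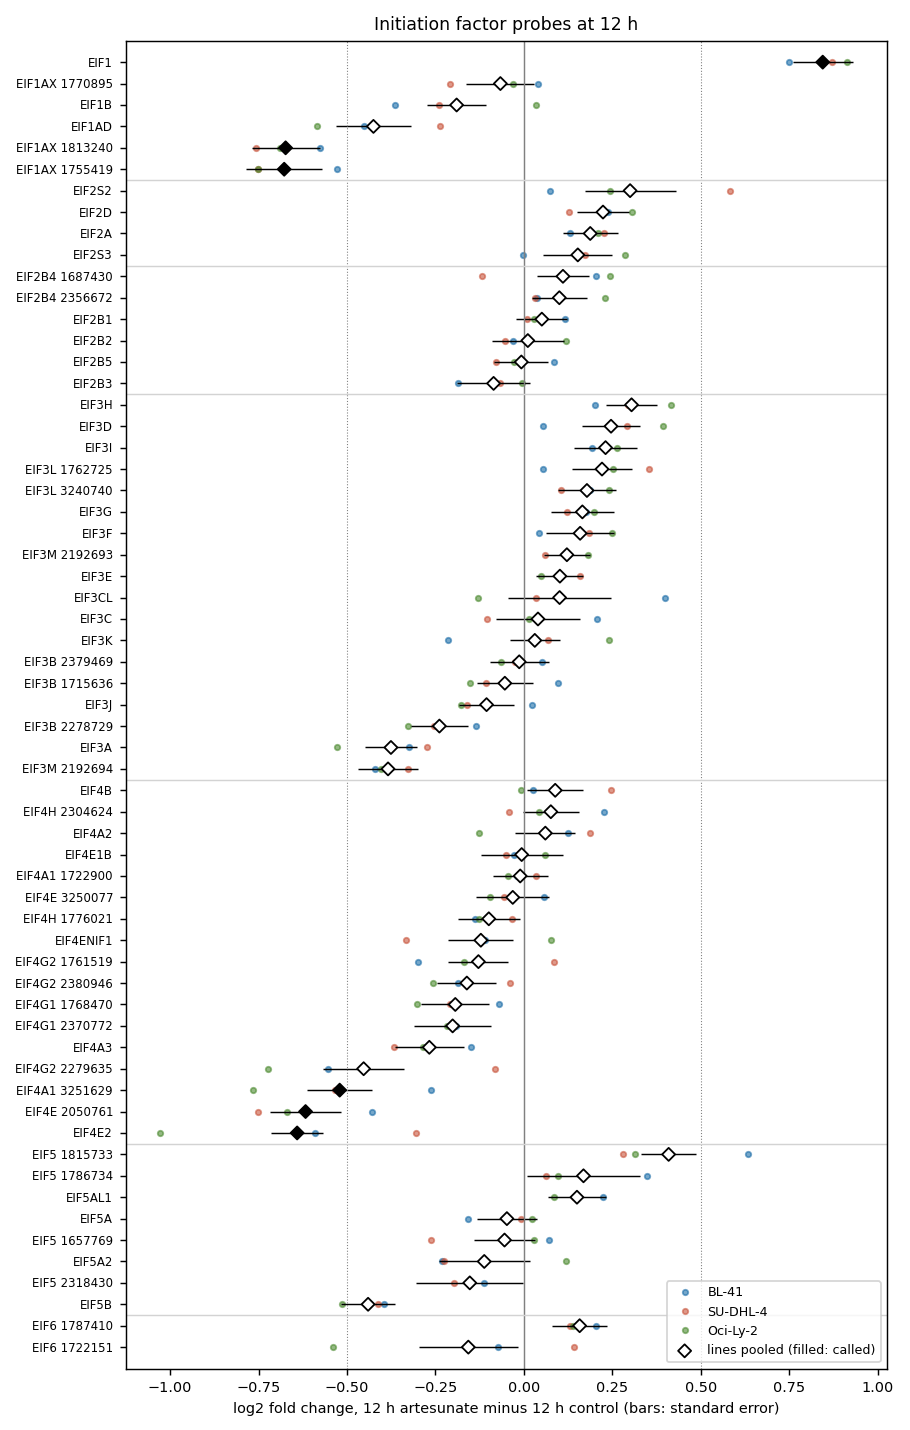
Log2 fold change of 61 member probes at 12 h, ordered within factor number, with the lines pooled (diamonds, bars of 1 standard error, filled where the probe changed) and in each line (coloured points). EIF1 stands alone on the right at 0.85, and the filled diamonds on the left lie between -0.68 and -0.52, while most members lie between the dotted lines at 0.5 and -0.5.

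EIF1, the factor that keeps the scanning subunit open until the start codon is met, was measured by 1 probe (ILMN_1803846), and levels are given as normalized signal on the log2 scale. In BL-41 the 12 h control arrays read 11.15 and 10.93 and the artesunate arrays 11.81 and 11.78. In SU-DHL-4 the values were 10.63 and 10.80 without the drug and 11.43 and 11.74 with it. In Oci-Ly-2 they were 10.52 and 10.65 without the drug and 11.41 and 11.59 with it. In every line both treated arrays thus lay above both controls, with no overlap. The log2 fold change was 0.91 (SE 0.15, adjusted p 0.00058) in Oci-Ly-2, 0.87 (SE 0.15, adjusted p 0.00212) for SU-DHL-4 and 0.75 (SE 0.15, adjusted p 0.00481) for BL-41. The pooled value was 0.85 (SE 0.08, adjusted p 8.84e-07), or 1.80-fold, and it passed in each of the 12 leave-outs of an array and with the cell line as the unit of replication. Within single lines the call depended on the arrays: it was lost in BL-41 on leaving out any of the 4 arrays of the comparison (adjusted p 0.0172 to 0.0923), in SU-DHL-4 on leaving out either control or artesunate replicate 3 (0.0141 to 0.0594) and in Oci-Ly-2 on leaving out control replicate 1 (0.0112) or artesunate replicate 3 (0.0194).

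EIF1B, a close relative of EIF1, did not pass (pooled log2 fold change -0.19, SE 0.08, adjusted p 0.144). The 2 genes of the pair therefore gave values of opposite sign, although the EIF1B value is no change by the thresholds used.

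EIF1AX encodes eIF1A, which works with eIF1 on the scanning subunit. At its brightest probe (ILMN_1813240) the BL-41 arrays read 8.07 and 8.21 in the 12 h control and 7.57 and 7.56 with artesunate. SU-DHL-4 gave 7.85 and 8.09 against 7.15 and 7.28. Oci-Ly-2 gave 8.13 and 7.92 against 7.26 and 7.42. Again no treated array reached a control of its line, here from below. The pooled log2 fold change was -0.67 (SE 0.10, adjusted p 5.99e-05), a 1.59-fold fall. The second probe (ILMN_1755419), detected on all 24 arrays, gave -0.68 (SE 0.11, adjusted p 0.00019). No single line passed for either probe; the adjusted p ranged from 0.015 to 0.153. Both probes remained among those that fell with the cell line as the unit of replication. Another EIF1AX probe, detected on 7 of 24 arrays, gave -0.07 (SE 0.10). Without background correction the values for the first probes were -0.49 and -0.27, inside the fold threshold. EIF1AD, a gene of the same name series for a protein that shares a domain with eIF1A, was detected on 5 arrays and gave -0.43 (SE 0.11, adjusted p 0.00898).

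For the factors that deliver the initiator tRNA, no probe passed. The eIF2 group held the beta and gamma subunits, EIF2S2 (0.30, SE 0.13) and EIF2S3 (0.15, SE 0.10), and EIF2A (0.19, SE 0.08) and EIF2D (0.22, SE 0.07), proteins that can bring tRNA without eIF2. All 4 pooled values were above 0, with adjusted p from 0.0468 upward. The 5 genes of eIF2B, the exchange factor of eIF2, lay closer to 0 at their brightest probes, from -0.09 in EIF2B3 to 0.11 in EIF2B4, with EIF2B1 at 0.05, EIF2B2 at 0.01 and EIF2B5 at -0.01. The median over the 6 eIF2B probes was 0.03 and over the 4 eIF2 probes 0.21.

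The eIF3 scaffold contributed 18 probes of 14 genes, of which 0 changed at 12 h in any line or pooled. In the pooled contrast 8 of the 18 had an unadjusted p under 0.05. Over all 63 members the share was 38.1%, against 26.9% of all tested probes. The values ran from -0.38 to 0.30. At the upper end stood EIF3H (0.30, SE 0.07, adjusted p 0.00564), EIF3D (0.25, SE 0.08), EIF3I (0.23, SE 0.09) and EIF3L (0.18, SE 0.08), and at the lower end EIF3A (-0.38, SE 0.07, adjusted p 0.00123), the largest subunit. EIF3H, EIF3A and the dimmer of the EIF3M probes (-0.38) passed on p but not on fold. The other subunits at their brightest probes were EIF3B (-0.01), EIF3C (0.04), EIF3CL (0.10), EIF3E (0.10), EIF3F (0.16), EIF3G (0.17), EIF3J (-0.11), EIF3K (0.03) and EIF3M (0.12). EIF3C and EIF3CL are near-identical copies whose RNA a short probe may not tell apart, so their values are uncertain.

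The eIF4 group, for cap binding and unwinding, held 3 of the 5 member probes that fell with the lines pooled. It contributed 17 of the 63 member probes, and 2.31% of all tested probes fell. EIF4E2 encodes 4EHP, which binds the cap but represses translation. In Oci-Ly-2 its probe (ILMN_1738326) read 9.92 and 9.86 in the 12 h control and 8.80 and 8.93 with artesunate. In BL-41 the values were 9.60 and 9.40 against 9.03 and 8.80. In SU-DHL-4 they were 9.58 and 9.76 against 9.34 and 9.39. The gap between groups was widest in Oci-Ly-2 and narrowest in SU-DHL-4, with no overlap in any line. The log2 fold change was -1.03 (SE 0.13, adjusted p 4.91e-05) in Oci-Ly-2, a 2.04-fold fall, while BL-41 (-0.59, SE 0.13, adjusted p 0.0113) and SU-DHL-4 (-0.30, SE 0.13, adjusted p 0.237) did not pass. Pooled, it was -0.64 (SE 0.07, adjusted p 4.92e-06), and with the cell line as the unit of replication the adjusted p rose to 0.0264. The Oci-Ly-2 call held in each leave-out of an array.

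EIF4E encodes the cap-binding subunit itself. Its brighter probe (ILMN_2050761) was dim and was detected on 17 of 24 arrays. It read 5.22 and 5.44 in the 12 h control of BL-41 and 4.79 and 5.02 with artesunate. In SU-DHL-4 it went from 5.05 and 5.37 to 4.39 and 4.53, and in Oci-Ly-2 from 4.98 and 5.18 to 4.38 and 4.44. In the latter lines the probe was not detected on either treated array, so only a bound can be set there. Against the lowest signal of any detected probe on those arrays (log2 4.76 or above), the control mean exceeded it at least 1.24-fold in Oci-Ly-2 and at least 1.35-fold in SU-DHL-4. The pooled value was -0.62 (SE 0.10, adjusted p 0.000198). With undetected signals set to the lowest detected signal of their array it was -0.39 (adjusted p 0.00252), inside the fold threshold, so that the call rests on signals not above background. It shrank to -0.21 without background correction and lost the call with the cell line as the unit of replication (adjusted p 0.011). The other EIF4E probe, detected on 9 arrays, gave -0.03 (SE 0.10), and 3 more EIF4E probes failed the detection filter.

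EIF4A1, the main helicase of the cap complex, had probes that differed. The dimmer one (ILMN_3251629) fell in Oci-Ly-2 from 10.15 and 10.07 in the 12 h control to 9.29 and 9.40 with artesunate. It read 9.93 and 9.81 against 9.59 and 9.08 in SU-DHL-4 and 9.16 and 9.37 against 9.07 and 8.92 in BL-41. The treated arrays were lower in each line. The change was -0.77 (SE 0.16, adjusted p 0.00547) in Oci-Ly-2 and -0.52 (SE 0.09, adjusted p 0.000521) pooled. The brighter probe (ILMN_1722900), in contrast, read 12.93 and 12.85 against 12.79 and 12.90 in Oci-Ly-2 and gave a pooled -0.01 (SE 0.08). The fall in Oci-Ly-2 was lost in each of the 4 leave-outs (adjusted p 0.0344 to 0.0553). The pooled call was lost without SU-DHL-4 artesunate replicate 3 (-0.44), BL-41 control replicate 3 (-0.48) or BL-41 artesunate replicate 3 (-0.49), each inside the fold threshold, and with the cell line as the unit of replication (adjusted p 0.0301).

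None of the other 12 eIF4 probes changed. The scaffold EIF4G1 gave -0.19 (SE 0.10) and its relative EIF4G2, which serves cap-independent initiation, -0.16 (SE 0.08). A dimmer EIF4G2 probe (ILMN_2279635) gave -0.45 (SE 0.11, adjusted p 0.00889). The helicase EIF4A2 was at 0.06, its relative EIF4A3, a core part of the exon junction complex, at -0.27 (SE 0.10), the helicase cofactors EIF4B and EIF4H at 0.09 and 0.08, EIF4E1B at -0.01 and the eIF4E transporter EIF4ENIF1 at -0.12. At the brightest probe of each of the 11 eIF4 genes, 8 values were below 0.

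No probe passed among the late factors. EIF5, the GTPase-activating protein for eIF2, gave 0.41 (SE 0.08, adjusted p 0.00106) at its brightest probe (ILMN_1815733), inside the fold threshold. In BL-41 that probe read 9.46 and 9.40 in the 12 h control and 10.11 and 10.02 with artesunate, a difference of 0.63 (SE 0.14) whose adjusted p of 0.0105 lay just outside the threshold. Its other probes gave -0.15, 0.17 and -0.05, and were detected on 24, 17 and 2 arrays. EIF5B, the GTPase of subunit joining, gave -0.44 (SE 0.08, adjusted p 0.00041), also inside the fold threshold. EIF5A, now known best for its part in elongation, was at -0.05, with its relatives EIF5A2 at -0.11 and EIF5AL1 at 0.15, and EIF6 was at 0.16 (SE 0.08).

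As a count that needs no threshold on size, both treated arrays lay above both controls in all 3 lines for 4 member probes (6.35%), against 6.17% of all tested probes. These were EIF1, EIF3H, EIF3L and EIF5. They lay below in all 3 lines for 10 member probes (15.9%), against 6.15% of all tested probes. These were both EIF1AX probes that fell and 1 probe each of EIF3A, EIF3B, EIF3M, EIF4A1, EIF4A3, EIF4E, EIF4E2 and EIF5B. The share that separated upwards was near the background, and the share that separated downwards was above it. That count is of probes, and EIF1AX enters it with both of these. Probes of the same gene ran, pooled, from -0.24 to -0.01 for EIF3B and from -0.38 to 0.12 for EIF3M. They ran from -0.52 to -0.01 for EIF4A1 and from -0.62 to -0.03 for EIF4E. The EIF4E probe was not detected on the treated arrays of SU-DHL-4 and Oci-Ly-2.

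**Figure D2:**
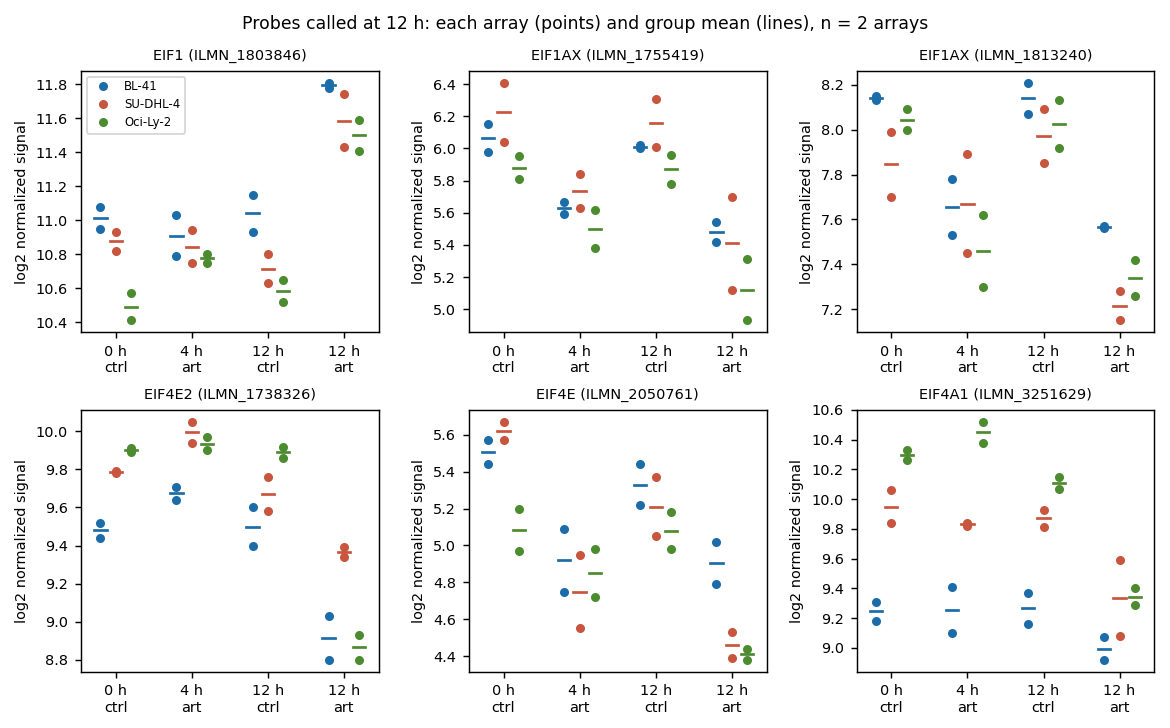
Log2 normalized signal of the 6 member probes that changed at 12 h on every array (points) with the group mean (lines, n = 2 arrays), by time and treatment (ctrl: control, art: artesunate), each panel with its own axis. EIF1 is highest at 12 h with artesunate in each line, the EIF1AX and EIF4E means at 4 h lie between those at 0 h and at 12 h with artesunate, and EIF4E2 is low only at 12 h with artesunate.

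Whether the lines responded differently was tested as the difference between their 12 h changes. No member passed in any of the 3 pairs of lines. The background was 0.064% of all probes for BL-41 minus SU-DHL-4, 0.12% for BL-41 minus Oci-Ly-2 and 0.02% for Oci-Ly-2 minus SU-DHL-4. In the same order, 0, 4 and 3 members (0%, 6.35% and 4.76%) had an unadjusted p under 0.05, against 6.72%, 6.28% and 7.59% of all probes. The smallest p belonged to EIF4E2, whose change in Oci-Ly-2 was -0.72 (SE 0.18, p 0.000731 in limma, adjusted p 0.188) below that in SU-DHL-4. Although EIF4E2 and EIF4A1 passed in Oci-Ly-2 only, they are thus not shown to respond differently there.

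The 4 h artesunate arrays were set against the 0 h control, with the mean of the 0 h and 12 h controls as an alternative, and without a 4 h control time and drug cannot be told apart. In single lines 0 members changed, where 0% of all probes changed in Oci-Ly-2, 0.056% for SU-DHL-4 and 0% for BL-41, and 6, 12 and 7 members (9.52%, 19.0% and 11.1%) had an unadjusted p under 0.05, against 7.52%, 10.8% and 8.24% of all probes. With the lines pooled, 0 members rose and 2 fell (3.17%), against 0.044% and 1.38% of all probes, or 1.42% in either direction. Among all probes, most changes at this time were falls. At an unadjusted p under 0.05 there were 20 members (31.7%), 12 of them higher and 8 lower, against 15.4% of all probes. The member probes that fell belonged to EIF3M and EIF4E, of which the EIF4E call rests partly on signals not above background.

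EIF3M encodes an eIF3 subunit. Its dimmer probe (ILMN_2192694) read 9.25 and 9.41 in BL-41 at 0 h and 8.77 and 8.69 after 4 h with artesunate. SU-DHL-4 went from 9.64 and 9.55 to 8.81 and 8.90, and Oci-Ly-2 from 10.01 and 9.74 to 9.54 and 9.10. The groups did not overlap in any line. The pooled change was -0.63 (SE 0.09, adjusted p 0.000156), and it was -0.38 (SE 0.09, adjusted p 0.00359) at 12 h. The other EIF3M probe (ILMN_2192693), also detected on all 24 arrays, gave 0.19 (SE 0.07, adjusted p 0.135) at 4 h and 0.12 (SE 0.07) at 12 h. The EIF3M probes thus differed in sign, and the fall is a statement about 1 of them. It did not pass with the cell line as the unit of replication (adjusted p 0.0149).

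The dim EIF4E probe read 5.44 and 5.57 at 0 h in BL-41 and 4.75 and 5.09 at 4 h. SU-DHL-4 gave 5.57 and 5.67 against 4.95 and 4.55, and Oci-Ly-2 5.20 and 4.97 against 4.98 and 4.72. In Oci-Ly-2 the groups overlapped, and in each line 1 of the 2 arrays at 4 h did not detect the probe. The pooled change was -0.56 (SE 0.10, adjusted p 0.00167). With undetected signals at the lowest detected signal of their array it was -0.49 and did not pass. Without SU-DHL-4 artesunate replicate 3 it was -0.49, inside the fold threshold, and without background correction -0.19.

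EIF1AX gave -0.41 (SE 0.10, adjusted p 0.0162) and -0.43 (SE 0.11, adjusted p 0.0253) at 4 h at the probes that fell at 12 h. EIF2B3, a subunit of the exchange factor, gave -0.50 (SE 0.10, adjusted p 0.00672) and EIF3A -0.37 (SE 0.07, adjusted p 0.00447). These values did not pass. EIF1 and EIF4E2 were at 0.05 (SE 0.08) and 0.15 (SE 0.07) at 4 h, where neither passed. EIF1 read 10.80 and 10.75 at 4 h in Oci-Ly-2, both above the 10.41 and 10.57 at 0 h. The groups overlapped in BL-41 (10.79 and 11.03 against 11.08 and 10.95) and SU-DHL-4 (10.75 and 10.94 against 10.93 and 10.82). The median of the 63 members was 0.069 at 4 h, against 0.017 for all tested probes.

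**Figure D3:**
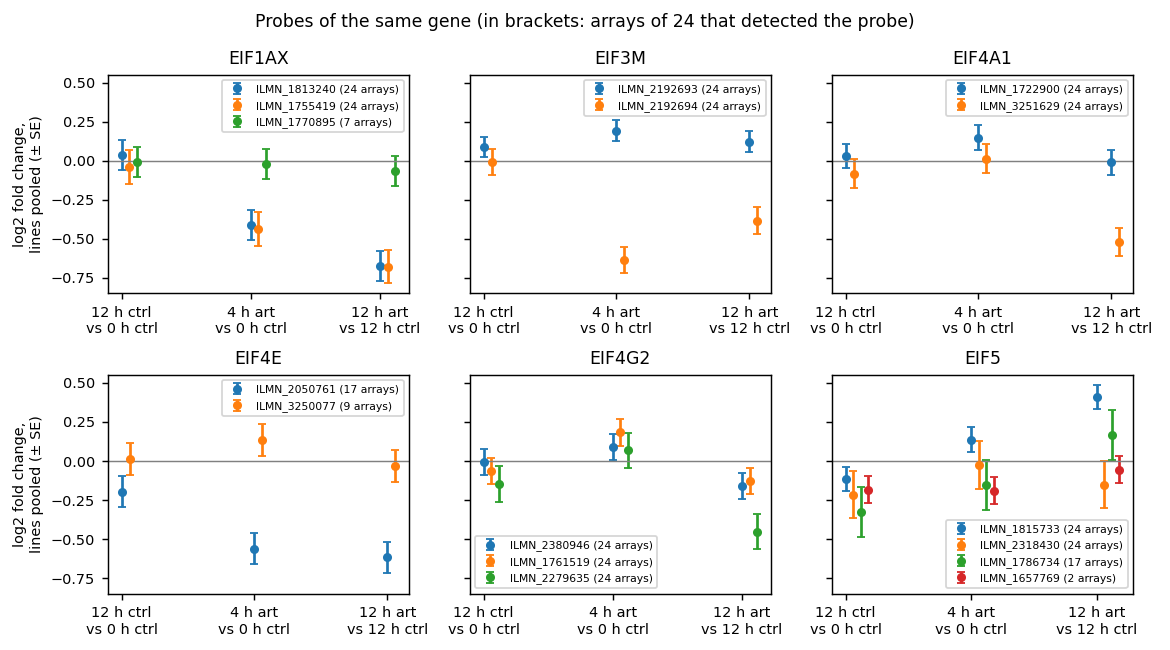
Pooled log2 fold change (points, bars of 1 standard error) of each probe of 6 genes with several probes, for time alone, for 4 h and for 12 h of artesunate, with the number of arrays that detected the probe in brackets. Probes of EIF3M part at 4 h (-0.63 and 0.19) and probes of EIF4A1 at 12 h (-0.52 and -0.01).

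Time alone, as the 12 h control minus the 0 h control with the lines pooled, changed 0 members, where 0.00799% of all probes changed. At an unadjusted p under 0.05 there were 4 members (6.35%), against 9.89% of all probes, and the values ran from -0.33 to 0.33. The probes that changed with artesunate at 12 h gave -0.01 for EIF1, 0.04 and -0.04 for EIF1AX, -0.03 for EIF4E2, -0.20 for EIF4E and -0.08 for EIF4A1.

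Of the 45 genes, 13 had more than 1 member probe. In 4 of these the probes differed in the sign of the pooled 12 h change, in 3 (EIF1AX, EIF4A1 and EIF4E) some probes fell and others did not, and in 0 all probes changed. The calls for EIF4E, EIF4A1 and EIF3M are therefore calls on probes, and what part of each transcript they read was not examined.

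The untreated lines themselves differed in their initiation factors, by the mean of the 0 h and 12 h controls (n = 4 arrays a line). Between BL-41 and SU-DHL-4, 8 member probes differed (12.7%), against 19.4% of all tested probes. Between BL-41 and Oci-Ly-2, 18 differed (28.6%), against 19.3%, and between Oci-Ly-2 and SU-DHL-4, 12 (19.0%), against 19.4%. The members thus stood near the background or on either side of it. EIF1AY accounted for 1, 2 and 2 of these probes.

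EIF3J, a loosely bound eIF3 subunit, gave 7.44 ± 0.09 (SD, n = 4) in Oci-Ly-2, 8.16 ± 0.16 in SU-DHL-4 and 8.82 ± 0.08 in BL-41, with no overlap between lines. BL-41 lay above Oci-Ly-2 by 1.38 (SE 0.09, adjusted p 3.05e-10), a 2.61-fold difference, and each of the 3 pairs of lines differed. EIF1B was lowest in Oci-Ly-2, at 8.95 ± 0.18, while BL-41 gave 9.70 ± 0.09 and SU-DHL-4 9.99 ± 0.14. The difference of Oci-Ly-2 from SU-DHL-4 was -1.04 (SE 0.10, adjusted p 6.62e-08) and that of BL-41 from Oci-Ly-2 0.76 (SE 0.10), while BL-41 and SU-DHL-4 did not pass.

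EIF4A1 was lower in BL-41 at both probes, unlike its response to the drug, which the probes did not share. The brighter probe gave 12.88 ± 0.08 in Oci-Ly-2, 12.72 ± 0.09 in SU-DHL-4 and 12.09 ± 0.10 in BL-41. The dimmer one gave, in the same order, 10.20 ± 0.12, 9.91 ± 0.11 and 9.25 ± 0.10. BL-41 minus Oci-Ly-2 was -0.78 (SE 0.10, adjusted p 1.57e-06) and -0.95 (SE 0.11, adjusted p 1.11e-06), and the diffuse large B-cell lines did not pass against each other.

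EIF5A was likewise lowest in BL-41, at 9.47 ± 0.13, while Oci-Ly-2 gave 10.14 ± 0.11 and SU-DHL-4 10.33 ± 0.11. The difference from SU-DHL-4 was -0.86 (SE 0.10). EIF3CL was 8.01 ± 0.16 in Oci-Ly-2, 8.05 ± 0.26 in SU-DHL-4 and 7.24 ± 0.48 in BL-41, and the BL-41 values overlapped the others. Its difference of -0.80 (SE 0.18, adjusted p 0.00136) from SU-DHL-4 was lost without BL-41 0 h control replicate 1 (-0.64, adjusted p 0.0136) or BL-41 12 h control replicate 3 (-0.61, adjusted p 0.0142). That from Oci-Ly-2 (-0.77) was lost without these (-0.61 and -0.57) and without Oci-Ly-2 0 h control replicate 1 (-0.70).

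Among the other members that differed between lines, the eIF4G relatives went opposite ways. Both EIF4G1 probes were higher in BL-41 than in Oci-Ly-2 (0.68 and 0.61), and all 3 EIF4G2 probes were lower (-0.51 to -0.59). The helicases showed the same contrast, with EIF4A2 higher in BL-41 than in Oci-Ly-2 (0.53) and EIF4A1 lower. EIF2B5 was higher in BL-41 than in Oci-Ly-2 (0.60) and EIF3F lower (-0.59), and both EIF3M probes were lower there (-0.64 and -0.51). EIF4A3 was higher in BL-41 than in SU-DHL-4 (0.55). Oci-Ly-2 exceeded SU-DHL-4 in EIF2S2 (0.72) and fell below it in EIF4A2 (-0.72), EIF4B (-0.62) and EIF4ENIF1 (-0.61). EIF3M at its brighter probe (0.63) and 2 of the 3 EIF4G2 probes (0.61 and 0.76) were higher in Oci-Ly-2 than in SU-DHL-4. The EIF4E probe detected on 9 arrays (ILMN_3250077) was detected on 4 of 4 SU-DHL-4 controls, at 5.13 ± 0.11, and on 0 of the 4 in either other line.

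**Figure D4:**
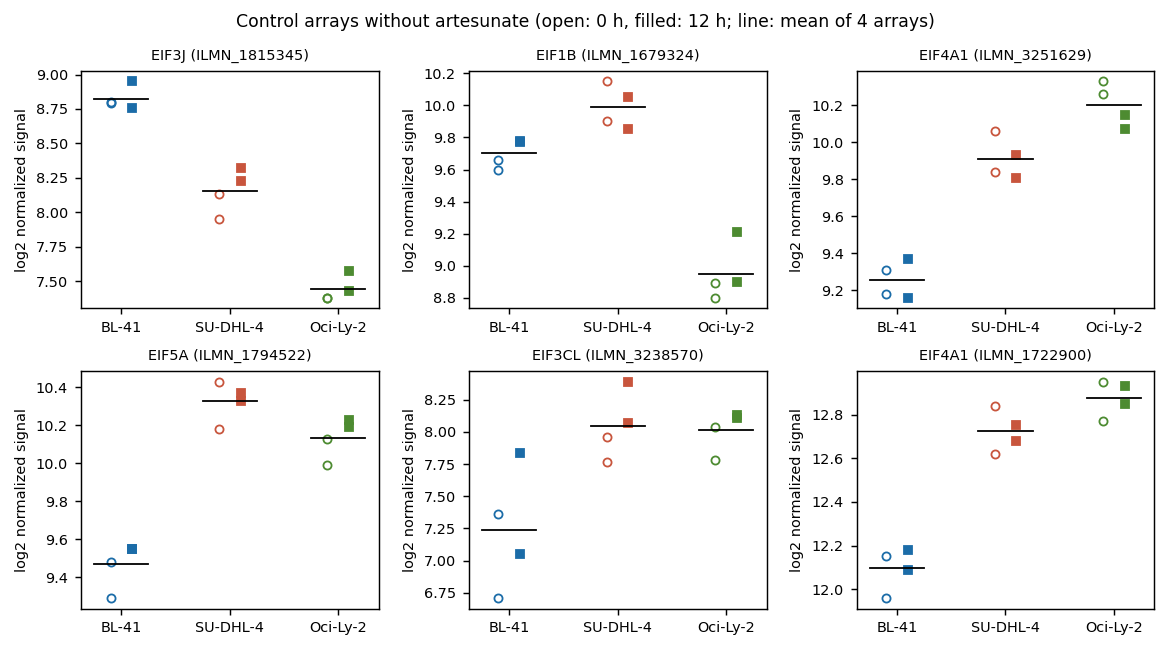
Log2 normalized signal of 6 member probes on the control arrays (open: 0 h, filled: 12 h, line: mean of 4 arrays) in each line, each panel with its own axis. EIF3J steps down from BL-41 (8.82) to Oci-Ly-2 (7.44), EIF1B is lowest in Oci-Ly-2, and both EIF4A1 probes and EIF5A are lowest in BL-41.

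Proteins that act on the factors were listed apart, again with changes of 12 h artesunate against 12 h control. With the lines pooled, 2.58% of all tested probes rose and 2.31% fell. Of the 3 genes for 4E-BPs, which block eIF4E, 1 rose with the lines pooled. EIF4EBP1 read 5.09 and 4.79 in the 12 h control of BL-41, the lower value not detected, and 5.45 and 6.04 with artesunate. In SU-DHL-4 it went from 6.12 and 5.89 to 6.43 and 7.20, and in Oci-Ly-2 from 5.70 and 5.01 to 5.92 and 6.30. Treated arrays were above the controls of their line. Between arrays of replicate number 3 the difference was 1.24 in BL-41, 1.31 for SU-DHL-4 and 1.29 for Oci-Ly-2, while replicate number 1 gave 0.36, 0.30 and 0.22. The pooled change was 0.79 (SE 0.17, adjusted p 0.00286), and no single line passed.

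Of 8 probes for eIF2 alpha, its kinases and its phosphatase subunits, 1 rose, that of PPP1R15A, which directs a phosphatase to eIF2 alpha. Its changes were 2.87 for Oci-Ly-2, 2.14 for SU-DHL-4 and 1.74 for BL-41 (SE 0.16), larger than that of any member. EIF2S1, the eIF2 alpha subunit, and the 4 kinases did not pass at 12 h, while the kinase gene EIF2AK4 fell at 4 h with the lines pooled (-0.58, SE 0.11, adjusted p 0.00323).

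Among 29 probes of 18 other initiation genes, 2 rose and 2 fell with the lines pooled, against 2.58% and 2.31% of all tested probes. MTIF2, the mitochondrial initiation factor, rose by 0.66 (SE 0.10) and PDCD4, an inhibitor of eIF4A, by 0.56 (SE 0.14) at 1 of 2 probes. MCTS1, which acts in reinitiation, fell at 12 h (-0.68, SE 0.10) and at 4 h (-0.71, SE 0.10). PABPC1, the poly(A)-binding protein, fell at 1 of 2 probes (-0.58 at 12 h and -0.70 at 4 h, SE 0.09 each). That probe also fell at 12 h in BL-41 (-0.75) and in Oci-Ly-2 (-0.66). In Oci-Ly-2, where 1.44% of all tested probes fell, the helicase gene DDX3X also fell (-0.99, SE 0.13). Of 6 probes for termination and recycling factors, listed apart, both of the recycling factor ABCE1 fell in Oci-Ly-2 (-0.70 and -0.93). With the lines pooled, 0 of these 6 changed at 12 h. None of 16 elongation factor probes changed in any line or pooled at 12 h, nor did the 6 probes of ACTB and GAPDH.

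The arrays as a whole allowed these comparisons within their precision. Between 16156 and 18171 probes were detected per array, the 2 arrays of a group correlated at 0.986 to 0.993, and the median absolute difference between them was 0.149 to 0.211 on the log2 scale. The B-cell genes MS4A1, CD79A and CD79B and the germinal centre genes MME and BCL6 were detected on all 24 arrays, while the probe of PAX5, a B-cell transcription factor, was detected on none. The T-cell genes CD3D and CD3E and the erythroid genes HBA1 and HBB were not detected on any array, the epithelial genes EPCAM and KRT18 were detected on 1 array each, and the T-cell gene CD2 on 5. Of the myeloid genes, CSF1R was detected on 0 arrays, CD14 on 8 and LYZ, at a dim level, on 22. The part of such signals in the results was not tested. These are bulk measurements relative to other transcripts on each array, so a smaller amount of RNA per cell and a change in its makeup cannot be told apart.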

How the data were processed

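Illumina HumanHT-12 v4 BeadChips were read for 24 arrays. The authors deposited probe intensities without normalization or background correction, each with a detection p-value from the scanner software, and a table of processed intensities that matched quantile-normalized signals without background correction within 0.0207 on the log2 scale. The study's own analysis used limma. The intensities were background-corrected with normexp, whose negative-control mean and spread were inferred from detection p-values (offset 16), quantile-normalized and log2-transformed (neqc, limma 3.58.1, R 4.3.3). Probes with a detection p under 0.05 on 2 or more arrays were tested in 1 model of 12 group means (12 residual and 7.418 prior degrees of freedom). The fit was also run on simulated arrays with independent noise. These carry no effect shared between arrays, so they cannot show how technical replicates bear on the p-values. Gene symbols came from the platform annotation, in which 30112 of 47319 probes had 1 symbol, 8 several and 17199 none. The annotation names EIF4EBP1 to EIF4EBP3 in a form that the pseudogene rule removed, so these stand among the related genes. A gene with several probes is represented by the one with the highest mean over all arrays.

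Members that changed most at 12 h, at 4 h or between untreated lines (up to 6 in each direction or comparison) are named with every array, and the others by family. The members, the related lists and the motifs were chosen with earlier results of these data known. The replicate numbers 1 and 3, d1 and d3 in the labels, were not treated as pairs in the main model. The differences between replicates correlated over 0.1 in 14 of 66 pairs of groups (-0.181 to 0.279), and in 9 of the 18 pairs within a line. These values do not decide whether arrays of the same number in a line form pairs, so a replicate block was also fitted. Alternatives were the threshold, the processed values, background correction, scaling, filters, array weights, a replicate block, the reference group, the unit of replication, undetected signals set to the lowest detected signal of their array (chosen after seeing the data) and leaving out each array.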

Additional observations from a re-analysis of the deposited data

How the results depend on the processing

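Among the members that changed most at 12 h, at 4 h or between untreated lines, none reversed its sign in the comparison in which it changed. The counts of members that changed at 12 h rested on few probes near the threshold, and the cause was not tested where they moved. In BL-41 the count of 1 became 3 at an adjusted p under 0.05, with the deposited processed values, without background correction, without or with a stricter filter on dim probes, with array weights and against the mean of the 0 h and 12 h controls (both controls below). It became 0 with median scaling and with the line fitted alone, which has fewer degrees of freedom. In SU-DHL-4 the count of 1 became 4 at an adjusted p under 0.05 and against both controls, 2 with the processed values, without background correction and against the 0 h control, and 0 with median scaling and with the line alone. In Oci-Ly-2 the count of 3 became 9 at an adjusted p under 0.05, 8 against both controls, 6 with array weights, 5 without or with a stricter filter and 2 with median scaling. There the EIF4A1 call was lost with median scaling (adjusted p 0.01) and with the line alone (0.0128). The pooled count of 6 became 2 (EIF1 and EIF4E2) with the processed values or without background correction and 3 (EIF1 and both EIF1AX probes) with the cell line as the replicate.

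At 4 h the pooled count of 2 became 1 (EIF3M) with the processed values, without background correction, with median scaling and against both controls, and 0 with the cell line as the replicate. With undetected signals at the lowest detected signal, chosen after seeing the data, the counts at 12 h were 3 in BL-41, 5 in Oci-Ly-2 and 5 pooled, and at 4 h 1 pooled, EIF4E being lost from both pooled counts. In SU-DHL-4 at 4 h the count of 0 became 2 at an adjusted p under 0.05 and 1 with the processed values or without background correction. Median scaling moved the median of all tested probes to -0.125 in Oci-Ly-2, 0.067 for BL-41 and -0.001 for SU-DHL-4 at 12 h, and EIF1 stayed above it in each line.

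Leaving out an array gave 1 to 2 members at 12 h in Oci-Ly-2, 0 to 1 for SU-DHL-4, 0 for BL-41, 5 to 7 pooled and 1 to 3 pooled at 4 h. For the untreated lines it gave 7 to 10, 15 to 18 and 11 to 13. The replicate block within each line gave 2 members in BL-41 (EIF1 and EIF4E2) and 2 in SU-DHL-4 (EIF1 and an EIF1AX probe), and it moved no other count by over 1.5 times. In BL-41 the replicate differences (3 minus 1) of the 12 h artesunate and 12 h control groups correlated at -0.144. Crossing the replicate numbers in the block there, tried after the data were seen, gave 1. Signal over background limits the dim EIF4E, EIF1AX and EIF5 probes, and 2 arrays a group limit the calls in single lines.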
